A study of Mus musculus with 6 samples.

Results

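The genes described are 5 ligands of the epidermal growth factor (EGF) family (Areg, Ereg, Btc, Tgfa and Hbegf), 3 receptors of the ErbB family (Egfr, Erbb2 and Erbb3) and the receptor inhibitor Errfi1. They were taken by gene ID from the deposited table of estimated counts, in which they are 9 of 31227 genes, and all 9 were among the 15503 genes left after a filter on low counts. Expression was measured by bulk RNA-seq in mouse intestinal organoids, small epithelial cultures grown from gut stem cells, with 2 libraries in each of 3 groups. The first group was wild type (WT), the second lacked Smad4 (Smad4 KO), and the third lacked Smad4 and was given TGFb at 0.5 nM (Smad4 KO+TGFb). No WT group with TGFb was analysed here, so an effect of TGFb was measured only without Smad4. The titles give 48 h for each library, while the protocol leaves it unclear whether TGFb was present for 48 h in all or for 2 further days. Every group grew in a medium with EGF at 50 ng/ml, Noggin at 100 ng/ml and R-spondin1 at 500 ng/ml, so a ligand of EGFR was supplied from outside in all 6 libraries. The labels do not say how Smad4 was inactivated, whether each group was 1 organoid line, or whether replicates were separate cultures. Each p-value thus rests on a spread that one fit estimates from all 6 libraries, 2 in each of 3 groups. The libraries of a group may lie apart for technical reasons alone, and a difference between lines cannot be told apart from the genotype.

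EGF family ligands are made as membrane proteins and released by cleavage at the cell surface. They bind EGFR, which then pairs with itself or another ErbB receptor and signals through Ras and ERK and through PI3K and Akt. ERBB2 binds no known ligand and serves as a partner, and ERBB3 binds neuregulins, has little kinase activity of its own and recruits PI3K well. ERRFI1, also called MIG6, binds active ErbB kinases and shuts them off, and its gene is itself switched on by their signals. In the gut, EGF from Paneth cells and the surrounding tissue supports stem cell division, and Areg and Ereg are known for their part in repair.

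Library totals ran from 40.55 to 50.7 M units of estimated count, with about 4 units taken as 1 sequenced fragment, and replicate profiles correlated across genes at 0.9705 to 0.9757. Smad4 itself stood at 99.4 and 109 CPM (estimated counts scaled by TMM and by library size) in WT, 21.7 and 23.1 in Smad4 KO and 25.2 and 29.5 in Smad4 KO+TGFb. Epithelial markers (6 genes) were high in all libraries, at 6096 to 10950 summed CPM. Leukocyte markers (6 genes) summed to at most 2.83 CPM with Cd79a at 0, endothelial markers (4 genes) to at most 0.764 with Cdh5, Kdr and Cldn5 at 0, and fibroblast markers (5 genes) to at most 0.479 with Col1a2, Col3a1 and Dcn at 0. The epithelial cell types differed between the groups. The summed level of 6 crypt-base stem markers was 6654 to 6655 CPM in WT, 3890 to 3929 in Smad4 KO and 2562 to 2584 in Smad4 KO+TGFb. For 7 Paneth markers it was 7945 to 7958, 3168 to 3327 and 3197 to 3283, and for 7 enterocyte markers 3218 to 3234, 9958 to 10050 and 6291 to 6318, in the same order. With TGFb, Mmp7 was higher than in WT, whereas the other 6 Paneth markers were lower. For TGFb within Smad4 KO, Mmp7 and Ang4 rose, Pnliprp2 fell and the other 4 Paneth markers did not pass. Of the enterocyte markers, 4 were higher with TGFb than in WT, Slc5a1 was lower, and Fabp2 and Sis did not pass. A list of 5 markers of regenerating epithelium, with Clu among them, summed to 82.3 to 94.6 CPM in WT, 441 to 473 in Smad4 KO and 2924 to 3001 with TGFb. Most of that last sum was Clu, at 2004 and 2066 CPM. Ly6a fell in Smad4 KO, from 22.4 and 23.1 CPM to 17.3 and 16.0, and did not pass with TGFb against WT. The other 4 rose in both comparisons, and all 5 rose with TGFb within Smad4 KO. Goblet markers (6 genes) summed to 4431 to 4439, 3535 to 3644 and 1842 to 1850 CPM, but in Smad4 KO against WT 3 of them fell (Tff3, Spink4 and Fcgbp), 2 rose (Clca1 and Zg16) and Muc2 did not pass. Enteroendocrine markers (5 genes) summed to 815 to 827, 336 to 349 and 317 to 330 CPM, and 4 tuft markers to 17.8 to 20.6, 10.3 to 13.6 and 9.85 to 10.2 CPM. These shifts lie in the same libraries as the results below, and their part in those results was not tested. In bulk RNA, fewer cells of a type and less RNA per cell cannot be told apart.

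RefSeq promoter windows on GRCm38.p6 were found for 6 of the 9 genes, and the 250 bases before each start were searched on both strands for 5 motifs. Areg (chr5:91139599-91148432, plus strand), which fell without Smad4, and Errfi1 (chr4:150853919-150868892, plus strand), which rose, are shown because both hold the same pair of motifs close to a start. Btc (chr5:91357261-91402994, minus strand) is shown because it fell with Areg and holds none of the motifs. All 3 are written 5′ to 3′ on the strand of the gene, and capitals mark TGACGTCA, the cyclic AMP response element, and TATAAA, the TATA box.
Areg, chr5:91139349-91139598: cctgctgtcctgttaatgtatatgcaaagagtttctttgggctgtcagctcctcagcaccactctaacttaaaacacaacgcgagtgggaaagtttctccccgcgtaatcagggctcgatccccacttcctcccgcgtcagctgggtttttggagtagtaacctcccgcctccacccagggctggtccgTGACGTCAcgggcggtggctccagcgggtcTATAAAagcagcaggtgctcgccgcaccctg
Errfi1, chr4:150854820-150855069: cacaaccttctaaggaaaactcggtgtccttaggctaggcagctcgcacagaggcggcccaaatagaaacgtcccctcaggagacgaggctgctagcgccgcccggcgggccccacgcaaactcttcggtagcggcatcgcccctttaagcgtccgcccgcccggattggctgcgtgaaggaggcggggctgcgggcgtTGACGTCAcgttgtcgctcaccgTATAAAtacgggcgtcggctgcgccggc
Btc, chr5:91402995-91403244: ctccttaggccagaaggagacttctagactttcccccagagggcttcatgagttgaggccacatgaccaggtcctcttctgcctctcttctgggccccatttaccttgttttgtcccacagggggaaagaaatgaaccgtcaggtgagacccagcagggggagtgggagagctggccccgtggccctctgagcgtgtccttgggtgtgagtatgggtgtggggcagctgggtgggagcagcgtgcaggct
The Areg match to TGACGTCA began 61 bases before the start and its TATAAA 31 bases before it. In the Errfi1 window, which lies before the downstream of its 2 annotated starts, the same motifs began 51 and 28 bases before the start. TGACGTCA stood in 1.55% and TATAAA in 12.4% of 32851 promoter windows of this length, and both motifs were added after the sequences had been seen. Part of this Errfi1 window is also an exon of 1700045H11Rik on the opposite strand.

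The series title names Smad4, TGFb and Yap, and motifs of related factors were searched in the same windows. GGAATG, bound by the TEAD partners of Yap, was found before Erbb2 (starting 88 bases before the start) and before the upstream start of Errfi1 (65 bases), and 12.6% of all windows hold it. CAGAC, a SMAD-binding motif, was found before Tgfa (90 bases) and in 42.2% of all windows. TGANTCA, the AP-1 motif, was in 6.75% of all windows and in none of those of the 6 genes. Egfr held none of the 5 motifs. No match overlapped another, and a match or its lack describes these letters only.

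Within each library, levels were set side by side per kb of exon, because longer genes collect more fragments. In WT, Areg was highest at 73.7 ± 4.77 CPM per kb (SD, n = 2), above Erbb3 at 35.9, Erbb2 at 30.6 and Errfi1 at 16.3. Btc (11.6), Tgfa (6.38), Egfr (4.65), Hbegf (3.89) and Ereg (1.19 CPM per kb) followed, and no 2 neighbours in this order overlapped. In Smad4 KO the order opened with Erbb3 at 76.7 and Erbb2 at 45.4 CPM per kb, and Areg ranked after them at 33.5 ± 3.82. Btc (5.80) and Egfr (5.77) overlapped in Smad4 KO, between Tgfa at 7.15 and Hbegf at 3.81 CPM per kb. With TGFb, Areg ranked second at 55.5 ± 4.45 CPM per kb, between Erbb3 at 79.8 and Erbb2 at 51.0, and Tgfa (9.20), Egfr (8.63) and Btc (8.06) overlapped their neighbours in the order. Ereg was lowest in all 3 groups. These lengths cover every annotated exon of a gene, so a gene that uses a short transcript is understated.

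**Figure D1:**
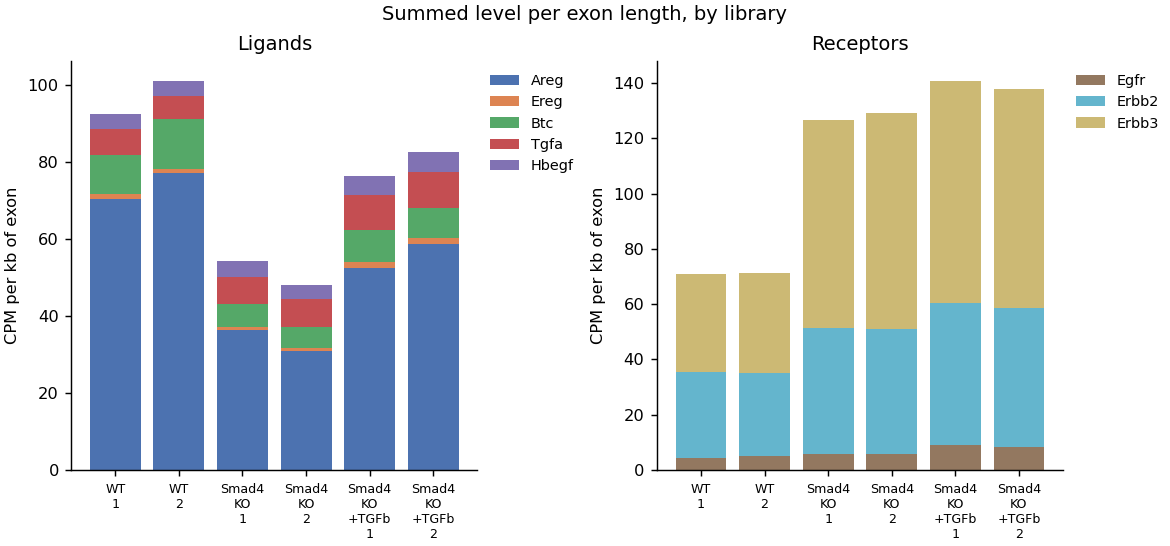
Stacked bars give the level per kb of exon (CPM per kb) of the 5 ligands and of the 3 receptors in each of the 6 libraries. Areg fills 64.3% to 76.2% of every ligand bar and Erbb3 50.3% to 60.5% of every receptor bar, and the ligand bars are shortest in Smad4 KO, where the receptor bars are taller than in WT.

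Summed over genes, ligand and receptor levels moved apart without Smad4. The 5 ligands summed to 92.3 and 101 CPM per kb in WT, 54.2 and 47.9 in Smad4 KO, and 76.4 and 82.5 in Smad4 KO+TGFb. The 3 receptors summed to 71.0 and 71.3 CPM per kb in WT, 127 and 129 in Smad4 KO, and 141 and 138 in Smad4 KO+TGFb. The ratio of the ligand sum to the receptor sum was therefore 1.3 and 1.42 in WT. It was 0.427 and 0.372 in Smad4 KO and 0.542 and 0.598 in Smad4 KO+TGFb, with no overlap between groups. Egfr, the receptor of the 5 ligands, made up only 4.46% to 6.95% of the receptor sum. Areg alone stood at 16.2 and 15.6 times Egfr in WT. That ratio was 6.25 and 5.36 in Smad4 KO and 5.77 and 7.16 with TGFb, which overlap. Areg made up 76.2% of the ligand sum in both WT libraries, 66.9% and 64.3% in Smad4 KO, and 68.6% and 71.1% with TGFb. Erbb3 made up 50.3% and 50.6% of the receptor sum in WT, 59.5% and 60.5% in Smad4 KO, and 57.1% and 57.5% with TGFb. The level of Erbb3 was 8.21 and 7.29 times that of Egfr in WT, 13.0 and 13.6 times in Smad4 KO, and 8.87 and 9.67 times with TGFb. These sums and ratios are descriptions, without a test.

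**Figure D2:**
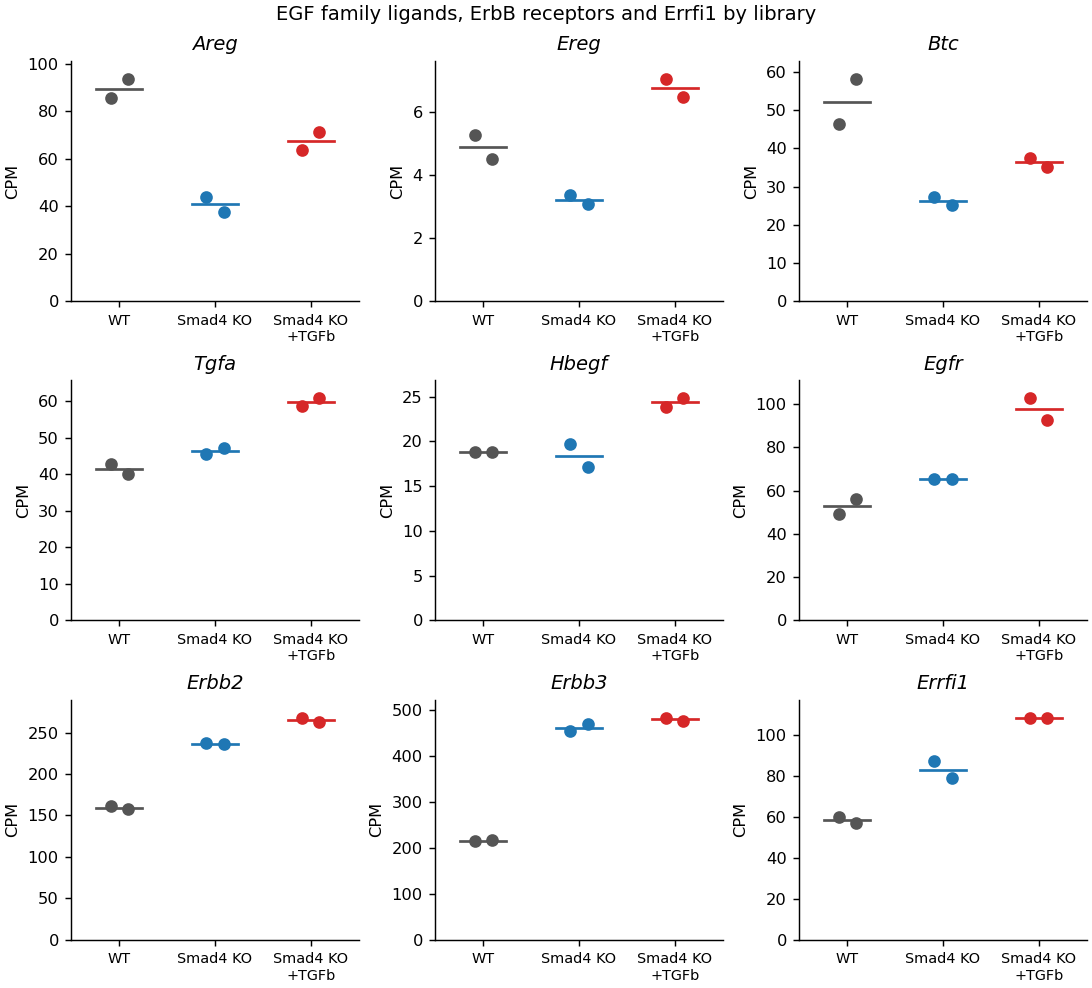
Each point is the level of a gene in 1 library (CPM, linear axes from 0) and each line the mean of its group of 2. Areg and Btc drop from WT to Smad4 KO and lie in between with TGFb, whereas the points of Erbb2, Erbb3 and Errfi1 climb from WT to Smad4 KO.

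Without Smad4, the receptors and Errfi1 were higher and the ligands Areg and Btc lower than in WT. By edgeR's quasi-likelihood test, with Benjamini-Hochberg adjustment over all 15503 genes and a threshold of 0.05, all 3 receptors and Errfi1 rose, Areg and Btc fell, and Ereg, Tgfa and Hbegf did not pass. Of all genes tested, 30.3% passed in this comparison, 16.9% as higher and 13.4% as lower. Library totals as the only scaling turned that split from 2620 higher and 2084 lower to 2125 and 2926. The median log2 fold change was 0.16 over the 9 genes and -0.02 over all genes tested. The libraries of the 2 groups did not overlap for 8 of the 9 genes, Hbegf being the exception, and for 66.7% of all genes. Fits that leave out a library, given below, keep a single library in that group. A call can be lost in them while the log2 change stays the same.

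Erbb3 (chr10:128567523-128589652, minus strand) had the largest change of the 3 receptors in this comparison. Its level was 215 and 217 CPM in WT and 454 and 469 in Smad4 KO. Both Smad4 KO libraries stood far above both WT libraries, a 2.14-fold rise (log2 1.10 ± 0.03, SE; edgeR adjusted p = 5.32e-06). Erbb2 (chr11:98412470-98437716), the partner without a ligand, was at 161 and 158 CPM in WT and 237 and 236 in Smad4 KO. That is 1.48-fold higher (log2 0.57 ± 0.04, edgeR adjusted p = 0.000159), with a gap between the groups larger than the gaps within them. Egfr (chr11:16752203-16918158), the receptor of all 5 ligands, was at 49.2 and 56.1 CPM in WT and 65.6 and 65.1 in Smad4 KO. The rise of 1.24-fold (log2 0.31 ± 0.09, edgeR adjusted p = 0.0383) was the smallest of the 3, and the 2 WT libraries lay further apart than the Smad4 KO ones. Its call was lost without WT replicate 1 (log2 0.22, adjusted p = 0.153), without Smad4 KO replicate 1 (0.31, 0.119) or replicate 2 (0.32, 0.111), and with library totals as the only scaling (0.22, 0.101).

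Errfi1, the feedback inhibitor, moved with the receptors. It was at 59.9 and 57.1 CPM in WT and 87.1 and 78.8 in Smad4 KO, without overlap. The rise was 1.42-fold (log2 0.50 ± 0.07, edgeR adjusted p = 0.00256), and it passed under all 13 alternative settings, as did those of Erbb2 and Erbb3.

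Among the ligands, Areg, which encodes amphiregulin, fell furthest. Its level was 85.4 and 93.6 CPM in WT and 44.0 and 37.4 in Smad4 KO. The 2 Smad4 KO libraries were both well below WT, a 2.2-fold fall (log2 -1.14 ± 0.11, edgeR adjusted p = 0.000507). Btc, which encodes betacellulin, a ligand of EGFR and ERBB4, was at 46.3 and 58.3 CPM in WT and 27.3 and 25.2 in Smad4 KO. WT replicate 2 was the highest library, and the groups stood apart, with a fall of 1.99-fold (log2 -0.99 ± 0.13, edgeR adjusted p = 0.00177). Both falls passed under all 13 alternative settings, with log2 values from -1.26 to -1.02 for Areg and from -1.15 to -0.82 for Btc.

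The other ligands did not pass. Ereg (chr5:91074622-91093646), which encodes epiregulin, was at 5.27 and 4.52 CPM in WT and 3.36 and 3.07 in Smad4 KO. It rested on about 69 and 50 fragments against 33 and 31, and the ratio of Smad4 KO to WT had a 95% interval of 0.474 to 0.911 (edgeR adjusted p = 0.0606). With library totals as the only scaling, Ereg fell (log2 -0.70, adjusted p = 0.0361). Tgfa (chr6:86195223-86275719), which encodes transforming growth factor alpha, was at 42.8 and 40.0 CPM in WT and 45.6 and 47.2 in Smad4 KO. Its ratio had an interval of 0.994 to 1.26 (edgeR adjusted p = 0.138). Hbegf (chr18:36504927-36515805), the heparin-binding ligand, was at 18.8 CPM in both WT libraries and at 19.7 and 17.1 in Smad4 KO, on either side of WT. Its ratio lay between 0.818 and 1.17 (edgeR adjusted p = 0.869), and without Smad4 KO replicate 2 its log2 change turned from -0.03 to 0.07 (adjusted p = 0.741).

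**Figure D3:**
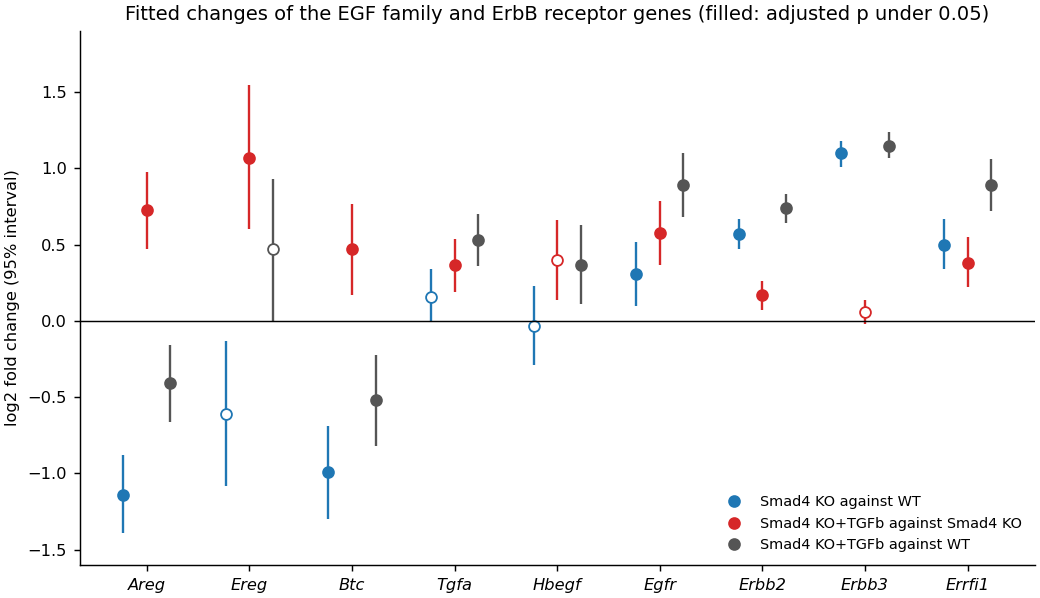
Points are fitted log2 fold changes of the 9 genes in the 3 comparisons, with 95% intervals as vertical lines, and filled points passed at an adjusted p under 0.05. Areg and Btc lie below 0 against WT in both Smad4-deficient groups and above 0 for TGFb within them, and Erbb3 is at about 1.1 against WT in both.

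TGFb was then compared with no TGFb among organoids that all lacked Smad4. Here 4 of 5 ligands, 2 of 3 receptors and Errfi1 rose, and none of the 9 fell (edgeR, the same threshold). Of all genes tested, 16.3% passed, 7.78% as higher and 8.48% as lower. Library totals as the only scaling turned that split from 1206 higher and 1315 lower to 1495 and 1108. The median log2 fold change of the 9 genes was 0.40, against -0.01 over all genes tested. The libraries did not overlap for any of the 9 genes, and for 56.9% of all genes. Every fit that left out a library called fewer than the 7 that rose with all 6. Such a fit keeps a single library in that group, so a call can be lost with the change unaltered. The log2 changes of all 9 genes stayed above 0 in these fits, for example 0.34 to 0.39 for Tgfa and 0.15 to 0.18 for Erbb2. Areg and Egfr passed in each of these fits.

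Areg rose from 44.0 and 37.4 CPM to 63.6 and 71.3 with TGFb. Both treated libraries were above both untreated ones and below WT, and the rise was 1.66-fold (log2 0.73 ± 0.11, edgeR adjusted p = 0.00552). Egfr rose from 65.6 and 65.1 CPM to 103 and 92.8, so that its TGFb libraries were the highest of all 6. The rise was 1.5-fold (log2 0.58 ± 0.09, edgeR adjusted p = 0.00636).

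Ereg had the largest fold change of the 9 genes, from 3.36 and 3.07 CPM to 7.06 and 6.47. The TGFb libraries held about 76 and 71 fragments against 33 and 31, a 2.1-fold rise (log2 1.07 ± 0.2, edgeR adjusted p = 0.0135). The call was lost without Smad4 KO replicate 2 (log2 1.01, adjusted p = 0.0667) and without TGFb replicate 1 (1.01, 0.0733) or replicate 2 (1.13, 0.0522). Of its exon bases, 3.42% overlap the antisense gene Gm19610, which held at most 26 units in any library against 124 to 305 for Ereg.

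Errfi1 rose from 87.1 and 78.8 CPM to 108 in both TGFb libraries. This is 1.3-fold (log2 0.38 ± 0.07, edgeR adjusted p = 0.0126), and without Smad4 KO replicate 2 (0.31, 0.0594) or TGFb replicate 1 (0.38, 0.068) or 2 (0.38, 0.0696) it did not pass. Tgfa rose from 45.6 and 47.2 CPM to 58.7 and 60.8, with small gaps within both groups. The rise of 1.29-fold (log2 0.37 ± 0.07, edgeR adjusted p = 0.0172) was lost without any 1 of the 4 libraries, at adjusted p-values of 0.091 and 0.0636 without Smad4 KO replicates 1 and 2 and 0.0632 and 0.0999 without TGFb replicates 1 and 2.

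Btc and Erbb2 passed narrowly. Btc went from 27.3 and 25.2 CPM to 37.6 and 35.2, which remained below both WT libraries. Its 1.39-fold rise (log2 0.47 ± 0.12) had an edgeR adjusted p of 0.04998, and its call was lost without Smad4 KO replicate 1 (0.115) or 2 (0.194) or TGFb replicate 1 (0.189) or 2 (0.126). Erbb2 went from 237 and 236 CPM to 268 and 263, a 1.12-fold rise (log2 0.17 ± 0.04, edgeR adjusted p = 0.0356). It did not pass in any of the 6 fits that left out a library, with adjusted p-values of 0.052 to 0.172.

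Hbegf and Erbb3 did not pass. Hbegf was at 19.7 and 17.1 CPM without and 23.9 and 24.8 with TGFb, a ratio of 1.32 with an interval of 1.10 to 1.59 (edgeR adjusted p = 0.0522). It passed with library totals as the only scaling (adjusted p = 0.0362), with RLE size factors (0.0486), with values divided by 4 (0.0458) and in DESeq2 (0.0131). Erbb3 was at 454 and 469 CPM without and 484 and 477 with TGFb. Its ratio lay between 0.983 and 1.10 (edgeR adjusted p = 0.327).

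Both differences together are given by the TGFb-treated Smad4 KO organoids against WT, a comparison that shares libraries with the other 2. Of the 9 genes 6 rose (Tgfa, Hbegf and all 3 receptors with Errfi1), Areg and Btc fell, and Ereg did not pass. Of all genes tested, 39.7% passed, 20.7% as higher and 19.0% as lower, and 72.3% did not overlap between the groups. Library totals as the only scaling turned 3216 higher and 2939 lower into 2934 and 3310. The median log2 fold change was 0.53 over the 9 genes and -0.02 over all genes tested. Against WT, Erbb3 was 2.22-fold higher (log2 1.15 ± 0.03, edgeR adjusted p = 3.3e-06), Egfr 1.86-fold higher (0.89 ± 0.09, 0.000409), Errfi1 1.85-fold higher (0.89 ± 0.07, 0.000151) and Erbb2 1.67-fold higher (0.74 ± 0.04, 3.32e-05). Tgfa was 1.44-fold higher (log2 0.53 ± 0.07, edgeR adjusted p = 0.00164).

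The remaining ligands differed less firmly between the TGFb-treated group and WT. Areg was 1.33-fold lower than in WT (log2 -0.41 ± 0.1, edgeR adjusted p = 0.022), but not without WT replicate 2 (adjusted p = 0.114) or TGFb replicate 1 (0.121). Btc was 1.44-fold lower (log2 -0.52 ± 0.12, edgeR adjusted p = 0.0167), but not without WT replicate 2 (0.0711) or TGFb replicate 1 (0.0544) or 2 (0.0861). Hbegf was 1.3-fold higher (log2 0.37 ± 0.11, edgeR adjusted p = 0.0338), and did not pass without WT replicate 1 or 2 (0.115 for each) or TGFb replicate 1 (0.0882) or 2 (0.128), nor with library totals as the only scaling (0.0523). For Ereg the ratio to WT had an interval of 1.00 to 1.91 (edgeR adjusted p = 0.102).

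Areg, Ereg and Btc lie together on chromosome 5 with Epgn, which encodes epigen, and their neighbours were read in the same fit. The cluster from Epgn (chr5:91027464-91035215) to Btc spans 376 kb, with 46 kb between Ereg and Areg and 209 kb between Areg and Btc. The cluster together with 200 kb on either side holds 12 genes of the table, of which 9 passed the filter. Epgn held at most 13 units in any library and was not tested. Parm1, which encodes a mucin-like membrane protein, lies beyond Btc. It was at 111 CPM in both WT libraries, 71.4 and 64.3 in Smad4 KO and 63.1 and 66.8 with TGFb. Parm1 fell 1.64-fold in Smad4 KO (log2 -0.71, edgeR adjusted p = 0.0007) and did not pass for TGFb within Smad4 KO (-0.06, 0.64). Mthfd2l, a folate enzyme gene on the other side, did not pass in either comparison (log2 0.17 and 0.23, edgeR adjusted p = 0.53 and 0.459).

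The chemokine genes Cxcl1 and Cxcl2, also in that window, had low levels. Cxcl2 was at 0.0573 and 0.137 CPM in WT, 0.738 and 0.719 in Smad4 KO and 2.31 and 2.39 with TGFb. Its WT level was close to 0, so the size of its change against WT is uncertain. Cxcl2 rose in Smad4 KO (log2 2.90, edgeR adjusted p = 0.0114), though not when only the 4 libraries of that comparison were fitted (0.0522). For TGFb within Smad4 KO it did not pass (log2 1.69, edgeR adjusted p = 0.0688), but it did with only those 4 libraries (0.035), with values divided by 4 (0.0218) and in DESeq2 (0.0142). Cxcl1 stood at 0.28 to 1.48 CPM and did not pass in either comparison (edgeR adjusted p = 0.607 and 0.0778), but for TGFb passed with values divided by 4 (0.0368) and in DESeq2 (0.0184). The noncoding Gm19610 was at 0 in both Smad4 KO libraries and at 0.182 to 0.593 CPM in the other 4, and Gm19619 stood at 0 to 1.11 CPM. Of the protein-coding genes in this stretch, Areg, Btc and Parm1 fell and Cxcl2 rose in Smad4 KO, and Ereg, Areg and Btc rose with TGFb.

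**Figure D4:**
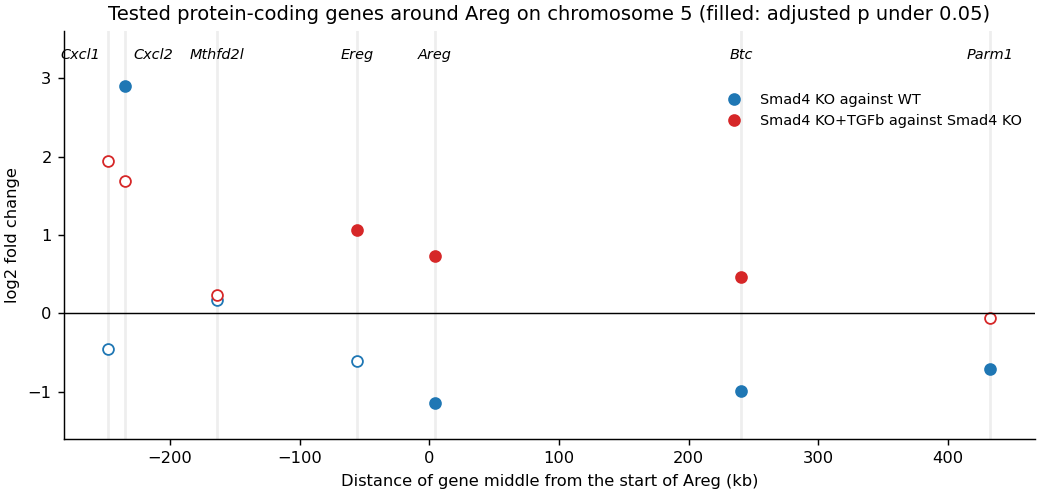
Points are log2 fold changes of the tested protein-coding genes around Areg on chromosome 5, placed by the distance of each gene's middle from the start of Areg (kb), filled where the adjusted p was under 0.05. Areg and Btc are filled for both comparisons, whereas Mthfd2l is open for both and Parm1 is filled only for Smad4 KO against WT.

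Other ligands and receptors of the family were scarce, apart from Nrg4, which stood near Ereg. Per kb of exon, Nrg4 was at 0.777, 1.155 and 1.296 CPM in WT, Smad4 KO and Smad4 KO+TGFb. Ereg was at 1.186, 0.779 and 1.639 in the same order. Of 7 further genes, Egf (1.02 to 1.69 CPM) and Nrg4 passed the filter on low counts. Epgn, Nrg1 and Nrg2 held at most 13 units in any library, and Nrg3 and Erbb4 were at 0 in all 6. Nrg4, which encodes a neuregulin that binds ERBB4, was at 4.22 and 5.22 CPM in WT, 6.80 and 7.23 in Smad4 KO and 7.36 and 8.39 with TGFb. It did not pass in Smad4 KO against WT (log2 0.57, edgeR adjusted p = 0.0632, but 0.0452 in DESeq2) or for TGFb (0.17, 0.63). It was higher with TGFb than in WT (0.74, 0.0213), though not without WT replicate 1 (0.0983) or TGFb replicate 2 (0.105).

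**Figure D5:**
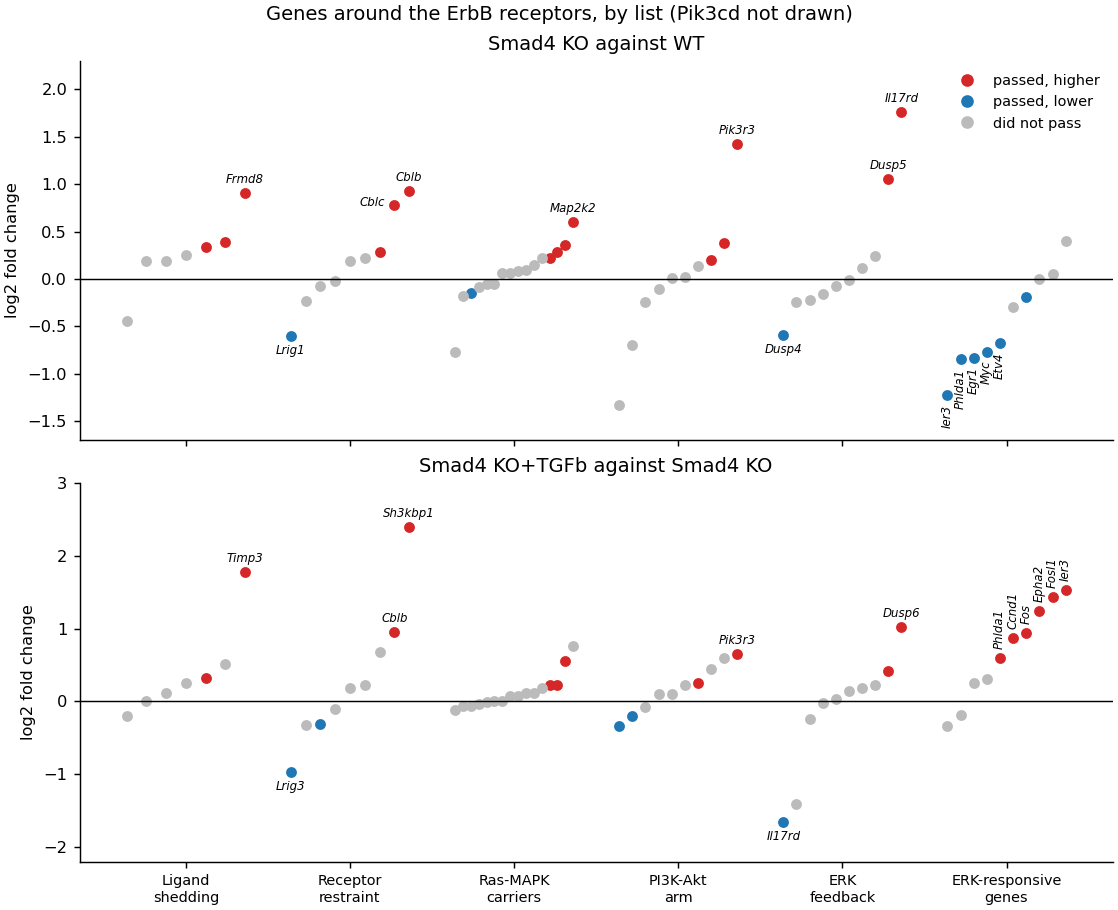
Each point is the log2 fold change of a gene from 6 lists of the pathway, for Smad4 KO against WT above and for TGFb within Smad4 KO below, in red or blue where it passed and grey where it did not. In the ERK-responsive list the passing genes lie below 0 in the upper panel and above 0 in the lower one.

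The lists that follow are read against the share of all genes called, which was 16.9% higher and 13.4% lower in Smad4 KO and 7.78% higher and 8.48% lower with TGFb. Of 7 genes that act on ligand shedding, 3 rose and none fell in Smad4 KO (median log2 0.25), while the sheddase genes Adam10 and Adam17 passed in neither of these comparisons. Frmd8, which stabilises the iRhom and ADAM17 sheddase complex, went from 45.5 and 52.2 CPM in WT to 91.5 and 92.5 in Smad4 KO (log2 0.91, edgeR adjusted p = 0.000392). Rhbdf2, which encodes an iRhom, rose by a log2 of 0.39 (0.00684) and the protease gene Adam9 by 0.34 (0.00681). With TGFb, 2 rose and none fell (median 0.26), and the larger change was in an inhibitor of shedding. Timp3, which encodes that inhibitor of ADAM17, went from 11.5 and 7.48 CPM in Smad4 KO to 34.5 and 30.6 (log2 1.78, 0.00242), and Adam9 rose further (0.32, 0.0138). The Adam9 rise with TGFb was lost without Smad4 KO replicate 1 (0.0681) or TGFb replicate 1 (0.0647) or 2 (0.088). The 2 Smad4 KO libraries disagreed on Adam10, at 96.2 and 191 CPM, whereas the other 4 lay between 193 and 212. Without Smad4 KO replicate 2, 1 shedding gene was called as falling in Smad4 KO.

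Of 9 genes listed under restraint of the receptors, a role not tested here, 3 rose and 1 fell in Smad4 KO (median log2 0.19). The number that fell differed in the fit without WT replicate 2. The ubiquitin ligase genes Cblb (log2 0.93, edgeR adjusted p = 0.000963) and Cblc (0.78, 0.000494) and the phosphatase gene Ptprj (0.28, 0.00914) rose. Lrig1, which encodes a membrane protein that promotes ErbB breakdown and marks stem cells, fell from 467 and 474 CPM to 295 and 326 (log2 -0.60, 0.000445). With TGFb 2 rose and 2 fell (median 0.19), and in DESeq2 5 rose. Sh3kbp1, an adaptor gene of CBL-driven receptor uptake, went from 3.41 and 2.92 CPM to 16.2 and 17.0 (log2 2.39, edgeR adjusted p = 0.000274), and Cblb rose from 32.8 and 31.7 to 63.8 and 60.9 (0.95, 0.00149). Lrig3 fell (log2 -0.97, 0.000902), as did Lrig1 (-0.31, 0.0113). The Lrig1 fall with TGFb was lost without TGFb replicate 1 (-0.28, 0.0726).

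Of 16 carriers of the Ras and ERK signal, 4 rose and 1 fell in Smad4 KO (median log2 0.07), a share called near the 30.3% of all genes, with Map2k2, which encodes a kinase of ERK, at 0.60 (edgeR adjusted p = 0.000474) and Gab1, an adaptor gene, at 0.36 (0.023). The Map2k2 rise passed in all 13 alternatives, whereas the count of rising carriers was 1 or 2 in every fit that left out a library. The Gab1 rise was lost without WT replicate 2 (0.114) or Smad4 KO replicate 1 (0.0915) or 2 (0.0763). The count of falling carriers was 0 or 1 in the fits that left out a library. With TGFb 3 rose and none fell (median 0.08), also a share near the 16.3% of all genes, with 1 or 2 rising in the fits that left out a library. Shc1 (0.23, 0.0294) and Ptpn11 (0.22, 0.0349), both coupling receptors to Ras, were lost without any 1 of the 4 libraries compared, at adjusted p-values of 0.0749 to 0.174, and Shc1 also without WT replicate 1 (0.0602) or 2 (0.0535). For Nras the 2 Smad4 KO libraries were at 72.2 and 28.0 CPM, and the other 4 between 82.3 and 89.0.

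In the PI3K and Akt arm, 1 regulatory subunit stood out by its test. Pik3r3 was at 20.0 and 20.5 CPM in WT, 55.9 and 52.2 in Smad4 KO and 84.3 and 85.9 with TGFb. The groups did not overlap, with a log2 rise of 1.42 in Smad4 KO (edgeR adjusted p = 3.36e-05) and a further 0.65 with TGFb (0.00151), and 24.3% of its exon bases overlap Gm49337 on the same strand, between which the authors' counting could divide fragments. Of 11 genes in the list, 3 rose and 1 fell in Smad4 KO (median log2 0.01), and 3 rose and 2 fell with TGFb (median 0.23). Akt1 rose with TGFb from a mean of 236 to 283 CPM (edgeR adjusted p = 0.00436) and Pik3r1, another regulatory subunit, fell by 0.34 on the log2 scale (0.00646). Pik3cb, a catalytic subunit, rose in Smad4 KO (0.38, 0.0177), though not without any 1 of the WT or Smad4 KO libraries (0.0532 to 0.0835). Pik3cd, the leukocyte-rich catalytic subunit, was at 0.496 and 0.388 CPM in WT, at 0 in both Smad4 KO libraries and at 0.578 and 0.912 with TGFb. Pik3cd held only 26 and 17 units in WT and 25 and 40 with TGFb. Against a floor of 3 fragments over the Smad4 KO group, the mean was 2.94-fold higher in WT and 4.95-fold higher with TGFb. Those ratios leave out the counting error of the WT and TGFb means. The call against WT was lost without WT replicate 1 or 2 or TGFb replicate 2. The number falling with TGFb was 1 in every fit that left out a library, and also with RLE size factors or library totals. Without any 1 of the WT or Smad4 KO libraries, 1 gene of the list rose in Smad4 KO in place of 3.

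Of 10 feedback genes of the ERK pathway, 2 rose and 1 fell in Smad4 KO (median log2 -0.04), a share called near the 30.3% of all genes. Il17rd, which encodes the ERK inhibitor SEF, was at 8.77 and 7.26 CPM in WT, 25.0 and 29.3 in Smad4 KO and 7.98 and 9.35 with TGFb. It rose without Smad4 (log2 1.76, edgeR adjusted p = 0.000482) and fell with TGFb (-1.65, 0.00119) to a level near WT. Dusp5, which encodes a nuclear ERK phosphatase, rose in Smad4 KO (1.05, 0.000241), and Dusp4, which encodes another, fell (-0.59, 0.00222). With TGFb 2 rose and 1 fell (median 0.09). Dusp6, which encodes the cytoplasmic ERK phosphatase, was at 29.0 and 28.6 CPM without and 57.5 and 59.2 with TGFb (log2 1.02, edgeR adjusted p = 0.000387). Dusp4 rose with TGFb (0.42, 0.0144), though not without Smad4 KO replicate 2 (0.0769) or TGFb replicate 1 (0.0629) or 2 (0.0798).

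Of the genes listed here as responding to ERK, several were lower without Smad4 and several higher with TGFb. The feedback genes above and Errfi1 were listed apart, and of those Dusp5, Il17rd and Errfi1 rose and Dusp4 fell in Smad4 KO. In Smad4 KO 6 of 10 fell and none rose, with a median log2 of -0.49 against -0.02 over all genes. Ier3, an immediate early survival gene, went from 15.6 and 17.0 CPM in WT to 7.33 and 6.59 (log2 -1.23, edgeR adjusted p = 0.000838). Phlda1 went from 179 and 175 CPM to 98.3 and 98.0 (-0.85, 5.07e-05), and the transcription factor gene Egr1 from 43.1 and 50.3 to 27.2 and 25.4 (-0.83, 0.00171). Myc (-0.77), Etv4 (-0.68) and Ccnd1 (-0.19) also fell. Across the fits that left out a library, 4 to 6 fell. Etv4 was lost without WT replicate 1 (adjusted p = 0.0793) or 2 (0.0638), and Ccnd1 without WT replicate 2 (0.0655) or Smad4 KO replicate 1 (0.0553) or 2 (0.0513).

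With TGFb 6 of these 10 genes rose and none fell, with a median log2 of 0.73 against -0.01 over all genes. Ccnd1, which encodes cyclin D1, went from 203 and 204 CPM in Smad4 KO to 379 and 364 (log2 0.87, edgeR adjusted p = 6.54e-05), above WT at 230 and 235. Epha2, which encodes an ephrin receptor, went from 51.9 and 53.3 CPM to 122 and 126 (1.24, 8.45e-05), with WT at 51.4 and 54.1. Phlda1 rose to 148 in both libraries (0.59, 0.000455), which is below WT. Ier3, Fosl1 and Fos made up the 6. The rest did not pass, with Etv4 (log2 -0.19) and Etv5 (-0.34) below 0 and Egr1 (0.26) and Myc (0.31) above it. Leaving out a library left 5 or 6 of them, since Fosl1 was lost without Smad4 KO replicate 1 (adjusted p = 0.0784) or 2 (0.108) or TGFb replicate 1 (0.125). Against WT, 4 were higher with TGFb (Fos, Fosl1, Ccnd1 and Epha2) and 5 lower (Etv4, Etv5, Egr1, Myc and Phlda1), with Myc lost without WT replicate 2 (0.138) or TGFb replicate 2 (0.137). Exons of Phlda1 (33.0%), Ccnd1 (23.4%) and Fosl1 (57.2%) overlap genes on the opposite strand, as do those of Dusp5 (22.1%), Timp3 (21.3%) and Spry1 (24.4%), and without a stated strand setting those reads cannot be told apart.

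The same lists were read in the TGFb-treated group against WT, where 20.7% of all genes were called as higher and 19.0% as lower. Of the shedding genes 6 of 7 rose, among them Timp3 (log2 1.97, edgeR adjusted p = 0.000588), Frmd8 (0.72, 0.000705) and Adam9 (0.66, 0.000278). Of the restraint genes 4 rose and 3 fell, with Sh3kbp1 at 2.36 (9.05e-05), Cblb at 1.88 (3.33e-05) and Lrig1 at -0.91 (4.92e-05). Of the carriers 8 rose and 1 fell, with Map2k2 at 0.54 (0.000481) and Gab1 at 0.44 (0.00785), and the number rising was 3 to 7 in the fits that left out a library. In the PI3K and Akt arm 4 rose and 1 fell, with Pik3r3 at 2.07 (5.33e-06). Of the ERK feedback genes 2 rose, Dusp6 (1.14) and Dusp5 (1.03), and 2 fell, Spry1 (-0.46, 0.0267) and the low Spry4 (-1.42, 0.0346). The Spry1 fall was lost without WT replicate 2 (0.135) or TGFb replicate 1 (0.0771) or 2 (0.116), and the Spry4 fall without any 1 of the WT or TGFb libraries (0.0993 to 0.119). The medians over the 5 lists, in this order, were 0.45, 0.45, 0.17, 0.21 and 0.01.

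For each of the 9 genes, the genes of most similar profile were ranked by the root mean square difference of log2 CPM over the 6 libraries, each gene centred on its mean, among 10344 genes with at least 5 CPM on average. Areg was closest to Gjb2, which encodes connexin 26 (difference 0.0847, mean levels 40.3, 19.5 and 33.2 CPM in WT, Smad4 KO and Smad4 KO+TGFb), then to Rab11fip4 and Cdo1. Btc was closest to Egr1 (0.0963), then to Eml2 and, like Areg, to Cdo1. Ereg was closest to Arhgap29 (0.102), then to Plat, which encodes tissue plasminogen activator, and Ddit4. Hbegf was closest to Nfe2l1 (0.0214) and Tgfa to Rhobtb2 (0.0333). Of the receptors, Erbb3 was closest to Gsto1 (0.0316, mean levels 284, 637 and 654 CPM), Erbb2 to Sh3d19 (0.0231) and Egfr to Asap2 (0.0489). Errfi1 was closest to Rhpn2 (0.0294), followed by Fosl2, which encodes a subunit of AP-1. With 3 groups of 2 libraries, many genes share any given profile.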

How the data were processed

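Bulk RNA-seq of 6 libraries of mouse intestinal organoids was used, grouped by their titles into 3 groups of 2. The values are the estimated counts per Ensembl gene that the authors deposited, as whole numbers. The submitters' processing notes name HISAT2 2.1.0, StringTie 1.3.3b, SAMtools 1.9, FastQC 0.11.9 and the build GRCm38. The sources used here do not give the annotation release or the strand setting. Multiples of 4 made up 42.3% of the values between 1 and 24, so about 4 units were taken as 1 fragment, which is an inference. StringTie divides fragments between overlapping transcripts.

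Of 31227 genes, 11742 were at 0 in all libraries and filterByExpr left 15503. edgeR 4.0.16 (quasi-likelihood test, 2-sided, TMM) used group as its single term in one fit of the 6 libraries, leaving 3 residual degrees of freedom, and p-values were adjusted by Benjamini-Hochberg over all genes tested, with a threshold of 0.05. The method was tested on simulated data. SE and 95% intervals come from the fit, and floors of 3 fragments cover counting error only. Positions, exon lengths and overlaps come from GENCODE vM21 and promoter windows from RefSeq. The fit was repeated under 13 other settings, including DESeq2 1.42.0.

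The genes and lists were chosen with earlier results of these data known. All 9 genes were named in every comparison, and from each pathway list up to 3 genes with the smallest adjusted p among those passing. Where none passed, the gene with the highest mean was named, and the 3 most similar profiles were sought for each of the 9 genes. Other listed genes, and the neighbours on chromosome 5, were named after their values were seen. A few listed genes that the rule selects are not reported here.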

Additional observations from a re-analysis of the deposited data

How the results depend on the processing

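Over the 13 settings, the 9 genes gave 307 results with the same direction and the same side of the threshold, 38 with a lost call, 5 with a gained call and 1 reversal. Library totals as the only scaling moved the median log2 fold change of all genes from -0.0213 to -0.1142 in Smad4 KO against WT and shifted the calls from 2620 higher and 2084 lower (55.7% higher) to 2125 and 2926 (42.1%). For Smad4 KO against WT, Ereg then fell (-0.70) and Egfr (0.22) did not pass. The same scaling gave Hbegf 0.45 for TGFb within Smad4 KO, now called, and 0.33 for TGFb-treated Smad4 KO against WT, no longer called. For TGFb within Smad4 KO, Hbegf was also called with RLE size factors (0.41), with values divided by 4 (0.40) and in DESeq2 (0.41).

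No label pairs the replicate numbers. Deviations of same-numbered libraries correlated at 0.00135, 0.0138 and 0.0118, which cannot exclude a small shared effect, so pairing remains unknown. With the replicate number as a block, Egfr in Smad4 KO against WT (0.31), Btc (0.47) and Erbb2 (0.17) with TGFb, and Hbegf with TGFb against WT (0.37) were no longer called, and 5 of the 9 genes rose with TGFb.

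Leaving out each library in turn kept a single library in its group, so a call could be lost with the change unaltered. It gave these log2 ranges where a call changed. For Smad4 KO against WT they were 0.22 to 0.41 for Egfr and -0.13 to 0.07 for Hbegf, which reversed to 0.07 without Smad4 KO replicate 2. For TGFb within Smad4 KO they were 1.01 to 1.14 for Ereg, 0.42 to 0.53 for Btc, 0.34 to 0.39 for Tgfa, 0.15 to 0.18 for Erbb2 and 0.31 to 0.46 for Errfi1. For TGFb-treated Smad4 KO against WT they were -0.49 to -0.32 for Areg, -0.67 to -0.35 for Btc and 0.35 to 0.41 for Hbegf. Counts of the 9 genes ran from 2 to 6 higher for TGFb and from 0 to 2 lower against WT. Over all genes, 1166 to 1867 fell in Smad4 KO (1166 without WT replicate 1, 1227 without WT replicate 2, 1387 without Smad4 KO replicate 1), and 656 to 1108 rose and 848 to 1196 fell with TGFb. The log2 change of Parm1 with TGFb ran from -0.14 to 0.02 and turned from -0.06 to 0.02 without Smad4 KO replicate 1 (adjusted p = 0.941). The cause of these changes was not tested. Other listed genes and counts gave 1304 results that kept their side or value, 72 counts that moved, 44 lost calls and 8 gained calls.

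With 2 libraries a group and 3 residual degrees of freedom, what passes depends on the spread of each gene as well as on the size of its change. With TGFb, Erbb2 passed narrowly at a log2 of 0.17, whereas Hbegf at 0.40 did not pass. Ereg rests on 31 to 76 fragments a library.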
